A study of Homo sapiens with 4 samples.

Results

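The genes described here are 10 of the integrated stress response: the transcription factor genes DDIT3 (which encodes CHOP), ATF4, ATF5 and CEBPB, the feedback regulators TRIB3 and PPP1R15A, and the effectors CHAC1, DDIT4, SESN2 and ASNS. They are 10 of 18417 genes that the platform annotation gives a probe set of their own. Each was read from the probe set annotated with only its symbol, and where a gene had several, from the one with the highest mean over the 4 arrays. The 10 genes had 11 such probe sets, since ATF4 had 2. All 10 lay above the floor of 4.84 log2 units, the 40th percentile of probe set means, as did 12900 of the 18417 genes.

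RNA came from Caco-2, an established human line from a colorectal adenocarcinoma whose cells, once confluent, come to resemble small intestinal enterocytes. The 4 conditions were cholate on Transwell, vehicle on Transwell, cholate on the plate and vehicle on the plate, with 1 array each. Transwell inserts were porous, collagen-coated membranes with separate apical and basolateral compartments, and the plates were regular 6-well plates. Cholate, the sodium salt of a primary bile acid, was given at 2 mM for 3 h, on the inserts to the apical side, in a buffered salt solution without calcium. The labels do not say whether the vehicle was that solution. All 4 pools came from 1 cell line without genetic change and each held RNA from 3 samples. The labels give 21 days of differentiation throughout, whereas the growth protocol gives 14 days for plates and 14 to 21 days for inserts. No condition was measured again, so a difference between 2 conditions has no replicate check and no p-value. The p-values below come from a model of all 4 arrays. In such pools, fewer cells with a transcript and less of it per cell cannot be told apart.

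In the integrated stress response, kinases that sense amino acid shortage, unfolded protein in the endoplasmic reticulum, viral RNA or heme shortage phosphorylate the translation factor eIF2. General translation then falls, while mRNAs with upstream open reading frames, among them those of ATF4, ATF5, CHOP and PPP1R15A, continue to be translated. ATF4 and its partners raise genes of amino acid supply and of stress adaptation, and prolonged signalling through CHOP favours cell death. A main part of the control of ATF4 is translational and is not seen in an RNA level.

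All 11 measured Caco-2 and enterocyte markers, among them VIL1 and CDX2, lay above the floor. Of 4 leukocyte markers, PTPRC and CD3E lay under it while CD14 and LYZ did not. Of 7 endothelial and fibroblast markers, CDH5 and VWF lay under the floor. The other 5 (PECAM1, COL1A1, COL1A2, COL3A1 and PDGFRB) lay above it, with COL1A1 at a mean of 7.80. Since 12900 of 18417 genes lay above it too, these readings do not tell which cell types were present. The arrays correlated at r of 0.977 to 0.993 across 19978 probe sets above the floor, and genes are not independent replicates.

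The promoters of CHAC1, ASNS, PPP1R15A and DDIT3 are shown. CHAC1 and ASNS are 2 effectors that hold the same short element but gave different readings on these arrays. The element is the core of the C/EBP-ATF composite site, TGATGNAA, to which ATF4 with a C/EBP partner can bind. In the RefSeq windows from 250 bases before to 50 bases after a gene's start (GRCh38.p14), it was found on either strand in CHAC1 and ASNS, 2 of the 10 genes, and in 3.62% of all 35116 windows. The palindromic cAMP response element TGACGTCA, a site for ATF and CREB factors, was found in PPP1R15A, 1 of the 10 genes, and in 1.85% of all windows. The CCAAT box, read on either strand as CCAAT, was found in 5 of the 10 genes (CEBPB, CHAC1, DDIT3, DDIT4 and SESN2) and in 34.6% of all windows. The endoplasmic reticulum stress element, CCAAT and CCACG with 9 bases of any kind between them, had no exact match in the windows of the 10 genes. It had one in 0.0769% of all windows. Only exact matches were counted for every element. In DDIT3, 9 bases after CCAAT come ccact on the gene's strand and gcacg on the opposite strand, each 1 letter from CCACG. Genes with several annotated starts had a window for each, so the 10 genes had 18 windows. A gene was counted if any of its windows matched, so the gene counts are not on the same scale as the shares of windows. A match describes letters in the window only. Capitals mark these elements in the 250 bases before the start, written 5′ to 3′ on the gene's strand.
CHAC1 promoter, chr15:40953221-40953470, plus strand: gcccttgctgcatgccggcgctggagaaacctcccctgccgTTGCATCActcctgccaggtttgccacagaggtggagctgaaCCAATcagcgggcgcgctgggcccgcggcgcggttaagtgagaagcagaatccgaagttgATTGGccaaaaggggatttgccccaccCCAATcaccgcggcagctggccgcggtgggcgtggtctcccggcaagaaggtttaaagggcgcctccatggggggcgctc
ASNS promoter, chr7:97872409-97872658, minus strand: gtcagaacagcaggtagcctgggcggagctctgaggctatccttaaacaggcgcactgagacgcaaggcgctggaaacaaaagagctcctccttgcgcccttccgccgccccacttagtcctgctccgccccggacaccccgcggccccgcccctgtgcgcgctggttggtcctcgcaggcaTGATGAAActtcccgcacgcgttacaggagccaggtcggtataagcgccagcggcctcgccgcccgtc
PPP1R15A promoter, chr19:48872171-48872420, plus strand: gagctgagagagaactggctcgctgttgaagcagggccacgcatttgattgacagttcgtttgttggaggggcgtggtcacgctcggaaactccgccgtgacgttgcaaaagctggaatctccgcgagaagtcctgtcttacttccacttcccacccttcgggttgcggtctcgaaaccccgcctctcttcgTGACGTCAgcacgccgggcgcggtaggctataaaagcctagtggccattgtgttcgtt
DDIT3 promoter, chr12:57520515-57520764, minus strand: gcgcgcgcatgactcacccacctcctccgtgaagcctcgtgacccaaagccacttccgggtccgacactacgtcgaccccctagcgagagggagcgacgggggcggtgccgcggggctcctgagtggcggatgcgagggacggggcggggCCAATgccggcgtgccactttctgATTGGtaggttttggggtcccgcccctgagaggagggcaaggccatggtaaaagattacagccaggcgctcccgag

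In CHAC1 the composite core lay on the opposite strand, 209 to 202 bases before the start. In ASNS it lay on the gene's strand, 68 to 61 bases before the start shown, and the window of its other annotated start did not hold these letters. The response element of PPP1R15A lay 58 to 51 bases before its start. DDIT3 held a CCAAT box on each strand, and the composite core was not among the letters of its window.

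The first question was how the 10 genes read in cholate against vehicle on each support. DDIT3, CHAC1, TRIB3 and PPP1R15A read higher in cholate on both supports, by 0.39 log2 or more. DDIT4 (0.29 on Transwell and 1.19 on the plate), CEBPB (0.13 and 0.84) and SESN2 (0.05 and 0.56) read higher mainly on the plate. ATF4, ATF5 and ASNS lay between -0.19 and 0.19 on both supports for the probe sets used. On Transwell, 2 of 10 genes were at least 1.5-fold higher and 0 lower, where 0.357% of 12900 genes were higher and 0.736% lower. On the plate, 6 of 10 were higher and 0 lower, where 1.49% of genes were higher and 2.35% lower. DDIT3 and CHAC1 were the 2 genes at that size on both supports, which 0.178% of genes were; both lay close to the line, and with arrays centred on their medians neither reached it on both supports (0.147% of genes did). The median log2 response of the 10 was 0.24 on Transwell and 0.71 on the plate, against -0.01 and -0.03 over all genes above the floor. The responses of DDIT3, TRIB3, CHAC1 and DDIT4 were known when the genes were chosen, so the counts describe the 10 genes and nothing wider is read from them.

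**Figure D1:**
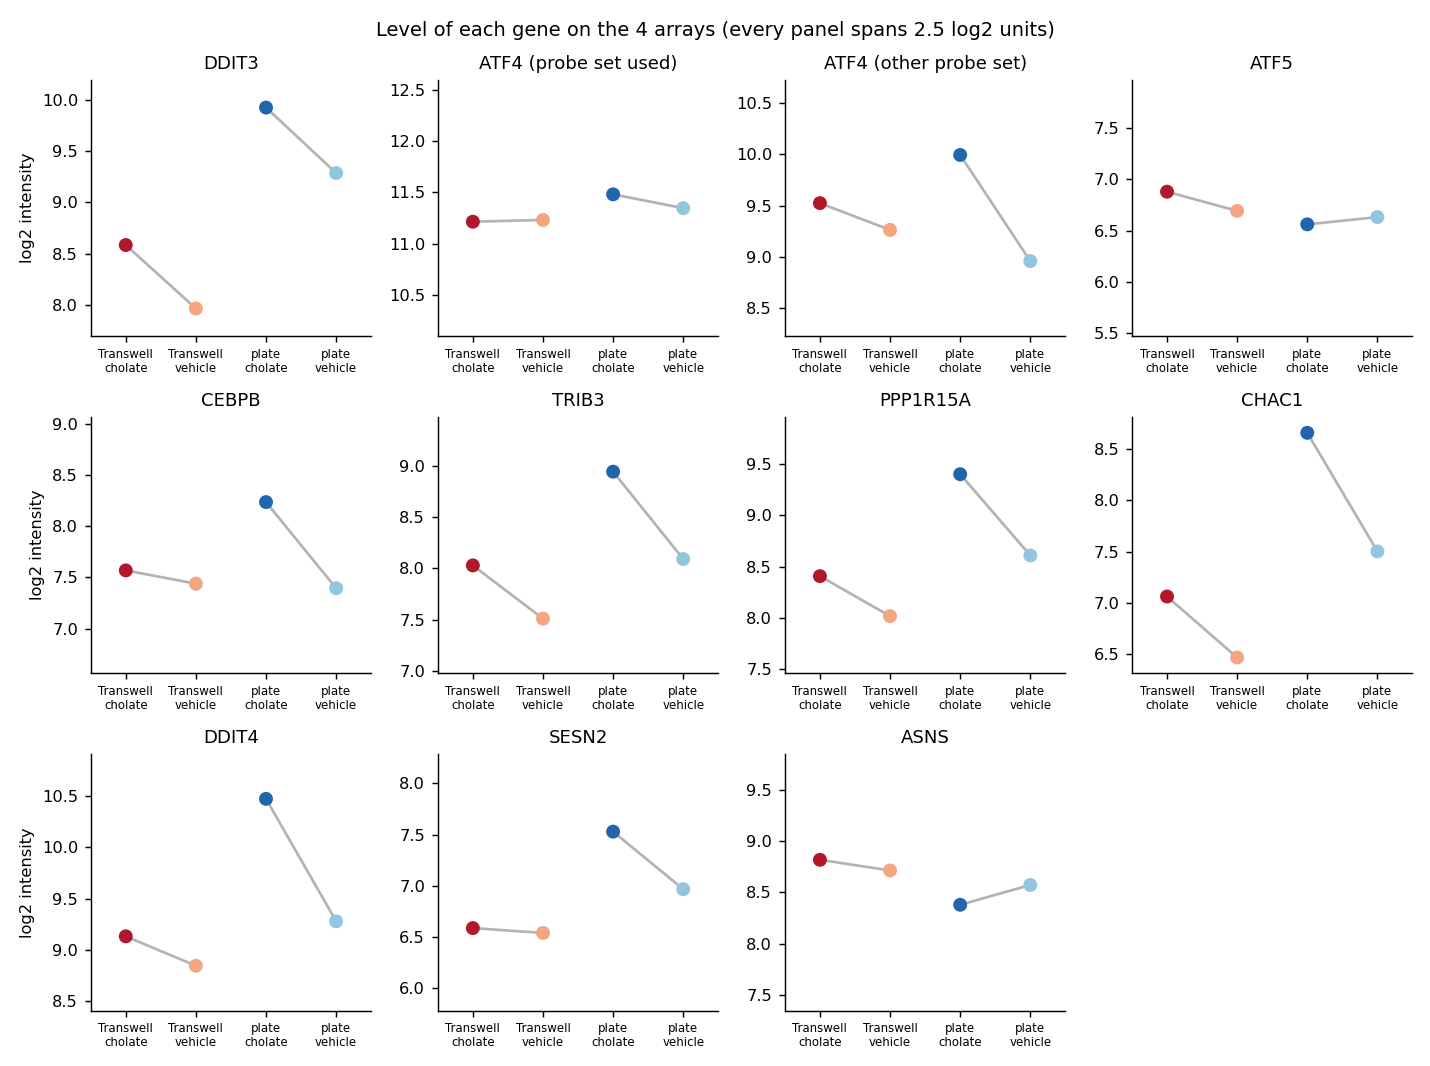
Log2 intensity (vertical axes, each spanning 2.5 log2 units) of the 10 genes on the 4 arrays, with both probe sets of ATF4. Each point is 1 array of pooled RNA and lines join cholate to vehicle on the same support: DDIT3 shows parallel steps on both supports, CEBPB and DDIT4 stand out in plate cholate, and ASNS and ATF5 stay within 0.44 and 0.32 log2 units over all arrays.

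Among the transcription factors, DDIT3 encodes CHOP, a C/EBP family member that pairs with other factors of its class. It read 8.58 in Transwell cholate and 7.97 in Transwell vehicle, and 9.92 in plate cholate and 9.29 in plate vehicle. Both plate arrays lay above both Transwell arrays, and cholate lay above vehicle on each support. The response was 0.62 log2 on Transwell and 0.64 on the plate (1.54-fold and 1.56-fold), with a mean of 0.63 and a limma standard error of 0.09. It ranked 36th highest of 12900 genes on Transwell and 155th on the plate.

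ATF4 encodes the activator at the centre of the pathway. The probe set used read 11.22 in Transwell cholate and 11.23 in Transwell vehicle, and 11.48 in plate cholate and 11.35 in plate vehicle. The responses were -0.02 and 0.13 log2, with a mean of 0.06 and a standard error of 0.09. On Transwell the sign depended on the scaling, as it was 0.002 after quantile normalization and 0.003 after cyclic loess.

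The other probe set of ATF4, a comparison added after the values were seen, gave a different reading. It stood at 9.52 in Transwell cholate and 9.26 in Transwell vehicle, and at 9.99 in plate cholate and 8.96 in plate vehicle. Plate cholate was its highest array and plate vehicle its lowest. Its responses were 0.26 log2 on Transwell and 1.03 on the plate, a mean of 0.65 with a standard error of 0.22. The 2 probe sets thus disagreed on the ATF4 response and the cause was not tested.

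ATF5, a relative of ATF4 that acts in the mitochondrial stress response, read 6.88 in Transwell cholate and 6.69 in Transwell vehicle, and 6.56 in plate cholate and 6.63 in plate vehicle. Its responses of 0.19 and -0.07 log2 had opposite signs, and the 4 arrays lay within 0.32 log2 units. CEBPB encodes C/EBP beta, a partner of ATF4 at composite sites that also serves inflammatory and differentiation programmes. It read 7.57 in Transwell cholate and 7.44 in Transwell vehicle, and 8.23 in plate cholate and 7.40 in plate vehicle. Plate cholate stood apart from the other three arrays of CEBPB, which lay between 7.40 and 7.57. The response was 0.13 log2 on Transwell and 0.84 on the plate (1.09-fold and 1.79-fold), with a mean of 0.48 and a standard error of 0.20.

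Of the feedback regulators, TRIB3 encodes a pseudokinase that binds ATF4 and CHOP and restrains them. It read 8.03 in Transwell cholate and 7.51 in Transwell vehicle, and 8.94 in plate cholate and 8.09 in plate vehicle. Its responses were 0.52 and 0.85 log2 (1.43-fold and 1.8-fold), with a mean of 0.68 and a standard error of 0.12, and it ranked 73rd and 91st of 12900 genes. The Transwell value lay just under the 1.5-fold line.

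PPP1R15A encodes GADD34, which directs protein phosphatase 1 to eIF2 and so ends the translational block. It read 8.41 in Transwell cholate and 8.02 in Transwell vehicle, and 9.40 in plate cholate and 8.61 in plate vehicle. Its responses were 0.39 and 0.79 log2 (1.31-fold and 1.73-fold), with a mean of 0.59 and a standard error of 0.13. Both regulators were thus higher in cholate on both supports and lowest in Transwell vehicle.

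Among the effectors, CHAC1 encodes an enzyme that breaks down glutathione. It read 7.06 in Transwell cholate and 6.47 in Transwell vehicle, and 8.66 in plate cholate and 7.50 in plate vehicle, so that the 2 plate arrays again lay above the 2 Transwell arrays. The response was 0.59 log2 on Transwell and 1.16 on the plate (1.51-fold and 2.23-fold), with a mean of 0.88 and a standard error of 0.17. It ranked 44th and 46th of 12900 genes, and its mean was the highest of the 10.

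DDIT4 encodes REDD1 and SESN2 encodes sestrin 2, both of which restrain the growth kinase mTORC1. DDIT4 read 9.13 in Transwell cholate and 8.85 in Transwell vehicle, and 10.47 in plate cholate and 9.28 in plate vehicle. Its responses were 0.29 and 1.19 log2 (1.22-fold and 2.29-fold), and their mean of 0.74 had a standard error of 0.25, which was the widest of the 10. SESN2 read 6.59 in Transwell cholate and 6.54 in Transwell vehicle, and 7.53 in plate cholate and 6.97 in plate vehicle. Its responses were 0.05 and 0.56 log2, so that the plate value (1.48-fold) lay just under the line. For both genes the 2 Transwell arrays were closer to each other than the 2 plate arrays.

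ASNS encodes asparagine synthetase, a long-known ATF4 target. It read 8.82 in Transwell cholate and 8.71 in Transwell vehicle, and 8.38 in plate cholate and 8.57 in plate vehicle. The responses were 0.10 and -0.19 log2, a mean of -0.04 with a standard error of 0.11. Of the 2 effectors printed above with a composite core, CHAC1 was thus 2.23-fold higher in cholate on the plate and ASNS stood at 0.875-fold.

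**Figure D2:**
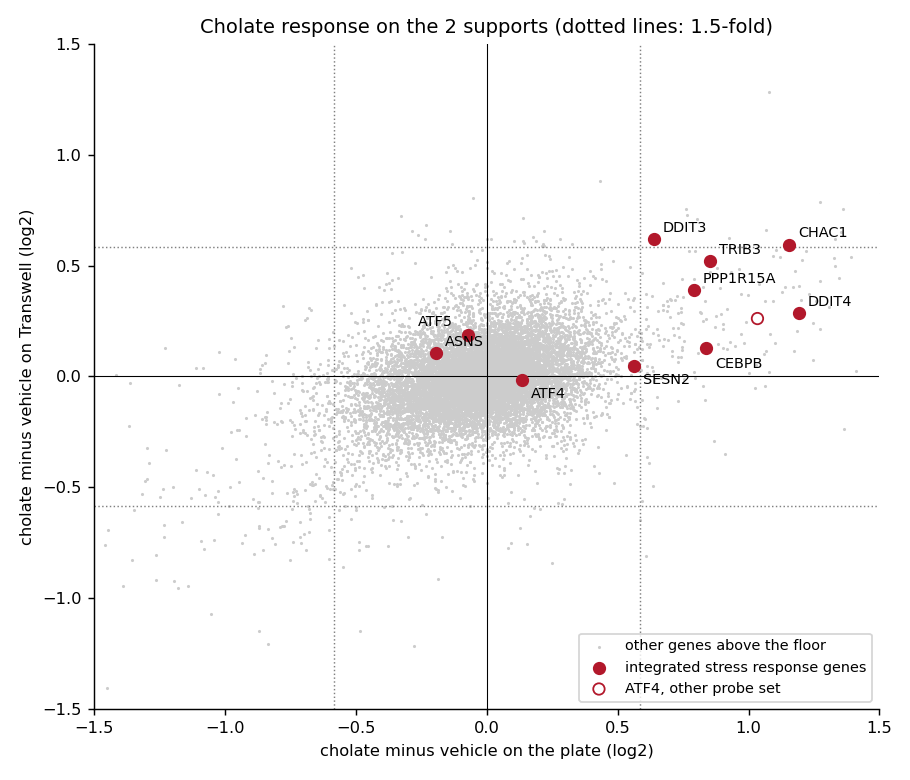
Cholate minus vehicle in log2 units on the plate (horizontal axis) and on Transwell (vertical axis), with the 10 genes in red, the other ATF4 probe set as an open circle and the other 12890 genes above the floor in grey; 36 of these lie outside the axes. DDIT3 and CHAC1 lie beyond the 1.5-fold lines on both axes, DDIT4 and CEBPB lie far right and close to the horizontal line, and ATF4, ATF5 and ASNS lie within the grey cloud.

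Across both supports, limma's additive model of support and treatment was fitted to all 19978 probe sets above the floor. For cholate it gave adjusted p-values of 0.321 to 0.904 for the 10 genes, and 0 of 10 passed. No probe set passed (0%), and 10.8% had an unadjusted p under 0.05, as did 5 of the 10 genes. The smallest adjusted p of the 10 belonged to DDIT3. The residual of the model has 1 degree of freedom, the difference between the responses on the 2 supports, so unequal responses on the supports widen a gene's error. limma combines this residual with a prior drawn from all probe sets, of 2.83 degrees of freedom. DDIT3, with a difference of -0.02 log2, had the smallest standard error of the 10 (0.09), which rests largely on that prior.

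The responses themselves were set against each other. The difference (Transwell response minus plate response) was below 0 in 8 of 10 genes, where 46.1% of genes above the floor were. Its median was -0.37 log2 in the 10 genes, against 0.02 over all genes above the floor. At a size of at least 1.5-fold, DDIT4 (-0.91 log2) and CEBPB (-0.71) had the smaller response on Transwell, and 1.46% of genes did; 0 of 10 had the larger response on Transwell at that size, and 1.59% of genes did. CHAC1 (-0.56) and SESN2 (-0.51) lay just short of that size. DDIT3 stood at -0.02, and at 0.005 under median centring of the arrays. This difference uses all 4 arrays and has no test.

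The last question was how the genes differed between supports within a treatment. These comparisons use the same 4 arrays as the responses, so they are not separate evidence. Of the 10 genes, 7 read lower on Transwell in both treatments and 2 higher in both, where 33.2% and 39.5% of genes did. In cholate, 7 of 10 were at least 1.5-fold lower, where 3.75% of genes were, and in vehicle 3 of 10 were, where 3.16% of genes were. The 3 genes lower in both treatments were DDIT3, CHAC1 and PPP1R15A, and 1.84% of genes were. Median centring left 2 of them, without PPP1R15A (1.64% of genes), and cyclic loess gave 4, with TRIB3 added (2.09% of genes). None of the 10 was 1.5-fold higher in either treatment, where 4.02% of genes in cholate and 1.93% in vehicle were.

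The support difference of DDIT3 was -1.34 log2 in cholate and -1.32 in vehicle (0.395-fold and 0.401-fold). The mean over treatments was -1.33 log2 with a limma standard error of 0.09, against a mean cholate response of 0.63. CHAC1 stood at -1.60 in cholate and -1.03 in vehicle, and ranked 12890th highest of 12900 genes in cholate. PPP1R15A stood at -0.99 and -0.59. TRIB3 stood at -0.91 and -0.58, its vehicle value falling just short of 1.5-fold.

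DDIT4 stood at -1.34 in cholate and -0.43 in vehicle, and SESN2 at -0.94 and -0.43. CEBPB was lower on Transwell in cholate (-0.67) and close to equal in vehicle (0.04). ATF4 stood at -0.27 and -0.12 on the probe set used and at -0.47 and 0.30 on the other. ASNS (0.44 and 0.14) and ATF5 (0.32 and 0.06) were the 2 genes that read higher on Transwell in both treatments.

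**Figure D3:**
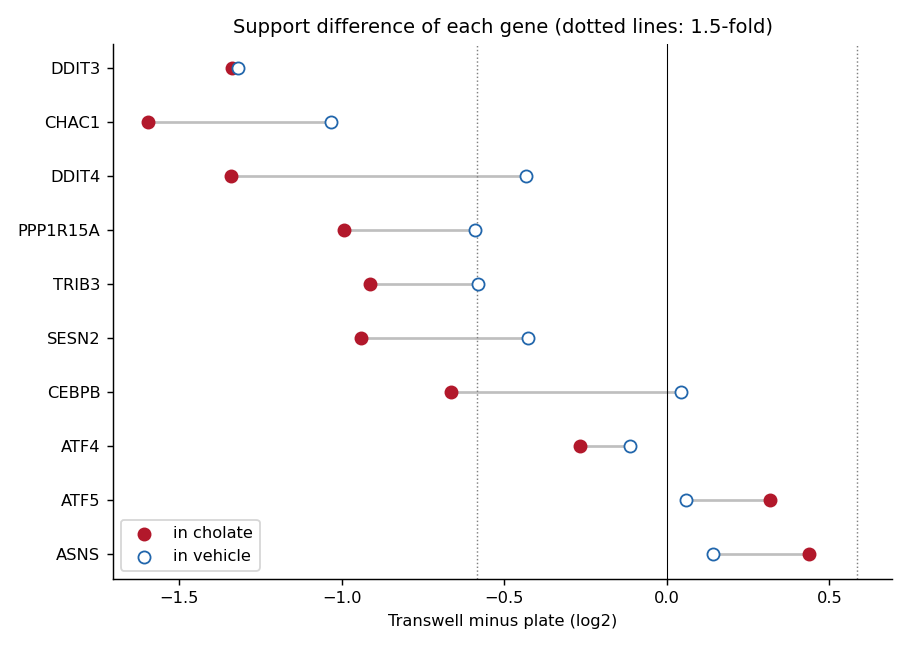
Transwell minus plate in log2 units (horizontal axis) for each of the 10 genes, in cholate (filled) and in vehicle (open), with dotted lines at 1.5-fold. The 2 values of DDIT3 coincide near -1.3, those of DDIT4 and CEBPB lie farthest apart, and ASNS and ATF5 lie right of 0.

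In the same additive limma fit the support effect had adjusted p-values of 0.0858 to 0.415 for the 10 genes, so that 0 passed. No probe set passed (0%), and 22.6% had an unadjusted p under 0.05, as did 6 of the 10 genes. DDIT3 had the smallest of the 10, 0.0858, a value that 126 probe sets had in common, and 27 probe sets had a smaller unadjusted p. With the floor at the 60th percentile DDIT3, CHAC1, TRIB3 and PPP1R15A passed, at adjusted p of 0.0135, 0.0261, 0.0385 and 0.0406, as did 6.06% of the probe sets tested there. With an intensity trend in the prior DDIT3 passed at 0.0282, as did 1.47% of probe sets. Over all alternatives the value for DDIT3 ran between 0.0135 and 0.171. Of the 11 enterocyte markers, LGALS4 was higher on Transwell by 1.18 log2 in cholate and 1.14 in vehicle, KRT20 by 0.83 and 0.39, and CDX2 by 0.56 and 1.0, and the others lay between -0.32 and 0.11. The linear intensities of the 11 markers summed to 33718 in Transwell cholate and 35029 in Transwell vehicle, and to 35634 in plate cholate and 37819 in plate vehicle. The part of enterocyte differentiation in the support differences was not tested.

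The wider pathway was described from lists of other genes. The 16 genes of the eIF2 kinases, eIF2 and its exchange factor eIF2B were all above the floor, with 0 at 1.5-fold for cholate on either support. Over all genes above the floor, 0.357% were higher and 0.736% lower at that size on Transwell, and 1.49% and 2.35% on the plate. The median response of the 16 genes was -0.02 log2 on Transwell and -0.11 on the plate. IMPACT, an inhibitor of the amino acid sensing kinase, stood at -0.14 and -0.54, and EIF2AK4, that kinase (GCN2), at -0.14 and -0.47. PPP1R15B, the constitutive counterpart of PPP1R15A, stood at 0.12 and 0.41, and was lower on Transwell by -0.62 in cholate and -0.33 in vehicle.

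Of 9 amino acid transporter genes above the floor, 0 were 1.5-fold higher in cholate on either support, where 0.357% of genes on Transwell and 1.49% on the plate were. SLC7A5, a subunit of the leucine transporter, stood at -0.51 log2 on Transwell and -0.59 on the plate. It was the single one of the 9 at least 1.5-fold lower, on the plate, where 2.35% of genes were. SLC36A4 stood at -0.29 and -0.05, and SLC1A4, a neutral amino acid transporter, at -0.23 and -0.10. The list medians for cholate were -0.08 and -0.05. For support, 8 of the 9 read lower on Transwell in both treatments, where 33.2% of genes did, and SLC1A4 had the largest mean difference, at -1.03 in cholate and -0.90 in vehicle.

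Of 9 genes of amino acid and one-carbon synthesis, 0 were 1.5-fold higher in cholate on either support. Over all genes above the floor, 0.357% on Transwell and 1.49% on the plate were. At least 1.5-fold lower were 0 of the 9 on Transwell and 1 on the plate (ALDH1L2), where 0.736% and 2.35% of genes were. The list medians were -0.01 on Transwell and -0.01 on the plate. ALDH1L2, a mitochondrial folate enzyme, stood at -0.31 and -0.66, and PSAT1, of serine synthesis, at -0.03 and -0.46. CTH, which makes cysteine from cystathionine, read higher at 0.28 and 0.27 and was lower on Transwell in both treatments (-0.55 in cholate and -0.56 in vehicle). All 13 aminoacyl-tRNA synthetase and tRNA export genes read below 0 on the plate and 10 of 13 on Transwell, with medians of -0.19 and -0.05. WARS1 (-0.18 and -0.29), IARS1 (-0.08 and -0.28) and GARS1 (-0.12 and -0.23) had the largest mean responses in size, and none reached 1.5-fold. Over all genes above the floor, 55.1% were below 0 on the plate and 53.5% on Transwell. On both supports 10 of the 13 were below 0, and 34.7% of all genes above the floor were.

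Of 14 other stress outputs of ATF4 or CHOP above the floor, 8 were above 0 on both supports, where 26.1% of genes were. On both supports 2 were below 0, where 34.7% of genes were. The medians of the 14 were 0.07 log2 on Transwell and 0.24 on the plate. At least 1.5-fold higher were 0 of the 14 on Transwell and 2 on the plate (ATF3 and GDF15), where 0.357% and 1.49% of genes were. At least 1.5-fold lower were 0 on either support, where 0.736% and 2.35% of genes were. ATF3, a repressor and early gene of the ATF family, was higher by 0.55 and 1.09. GDF15, a secreted stress cytokine, was higher by 0.27 and 0.70, and VEGFA by 0.24 and 0.40. ATF3 was also lower on Transwell, at -1.35 in cholate and -0.80 in vehicle, as DDIT3 and CHAC1 were.

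The chaperones of the endoplasmic reticulum and the other genes of the ATF6 and XBP1 branches had 0 of 19 members at 1.5-fold for cholate. Over all genes above the floor, 0.357% were higher and 0.736% lower on Transwell, and 1.49% and 2.35% on the plate. The list medians were 0.03 on Transwell and -0.04 on the plate. DNAJB9, a co-chaperone, stood highest at 0.44 and 0.23, CRELD2 at -0.28 and -0.17, and XBP1 at 0.15 and 0.12. HSPA5 (BiP), the defining chaperone of the unfolded protein response and named after its values were seen, stood at 0.01 and -0.07. In these lists 0 genes passed limma for cholate (smallest adjusted p of 0.325, SLC7A5) or for support (0.0886, SLC1A4).

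**Figure D4:**
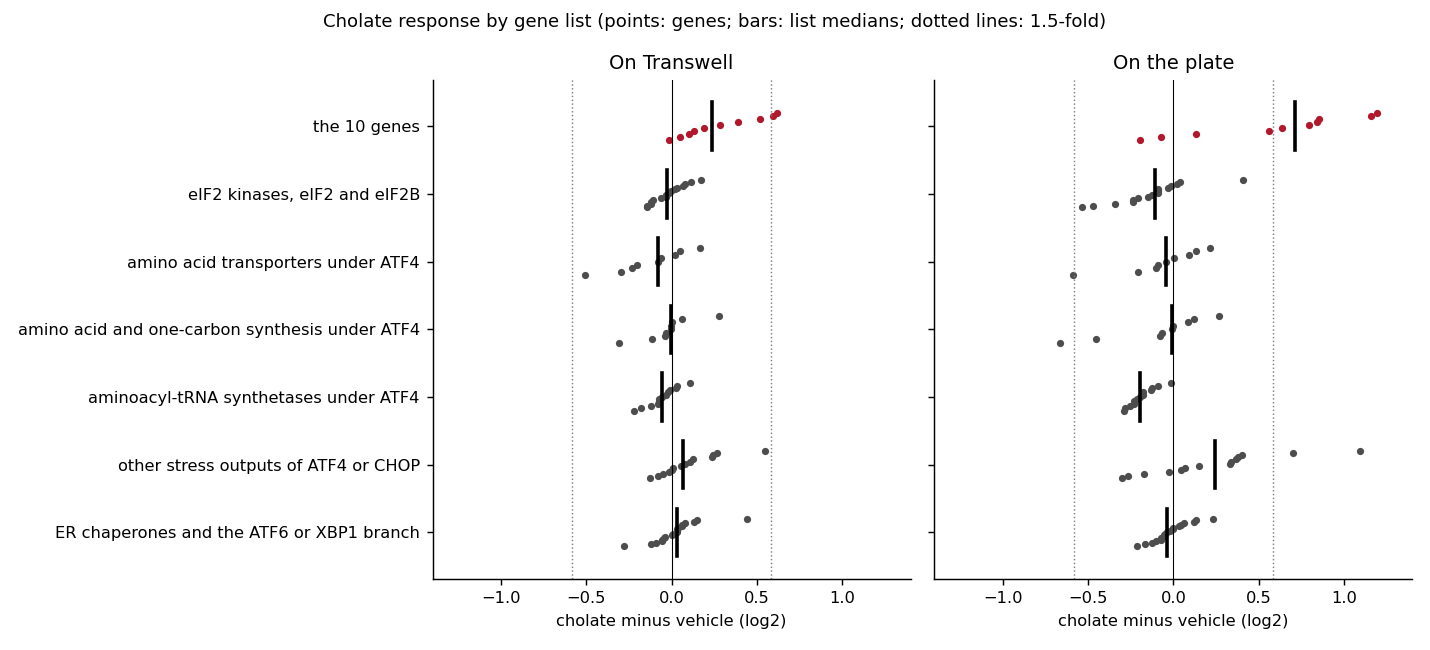
Cholate minus vehicle in log2 units (horizontal axes) on Transwell (left) and on the plate (right), with 1 point per gene above the floor and a bar at each list's median. The 10 genes have medians of 0.24 and 0.71, the other stress outputs 0.07 and 0.24, and the other 5 lists drawn lie at or below 0.03.

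Paralogs of the 10 genes varied. Of 14 above the floor, ATF3 was the single one at 1.5-fold for cholate, higher on the plate, where 1.49% of genes above the floor were. PPP1R15B followed, and TRIB1, a relative of TRIB3, stood at -0.18 on Transwell and -0.25 on the plate.

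Likeness to DDIT3 was measured as the Euclidean distance between profiles over the 4 arrays, each minus its own mean, among genes above the floor. The 5 nearest genes outside the 10 were PMAIP1 (distance 0.21 log2 units), JUNB (0.21), DEPP1 (0.34), DUSP1 (0.36) and CACHD1 (0.38). PMAIP1 encodes the BH3-only protein NOXA, JUNB an AP-1 subunit and DUSP1 a MAP kinase phosphatase. PMAIP1 read 5.74 in Transwell cholate and 5.11 in Transwell vehicle, and 7.16 in plate cholate and 6.23 in plate vehicle. Of the 10 genes, CHAC1 lay nearest to DDIT3 (0.37, with 4 other genes nearer), followed by PPP1R15A (0.57), TRIB3 (0.61), DDIT4 (0.64) and SESN2 (0.76). ASNS lay farthest, at 1.76, with 11010 genes nearer. Profiles of 4 values are short, and the distances are a description with no test.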

How the data were processed

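RNA of Caco-2 cells was measured on 4 arrays, 1 for each of 4 conditions, each from RNA pooled from 3 samples per the labels. The authors deposited 1 log2 intensity per probe set and array, for which the submitters' processing notes name RMA; its software and version are not stated there. RMA equalises the arrays, which hides a shift common to most transcripts, and it shrinks differences near background. Of 33297 probe sets, 19460 had 1 gene symbol, and the 10 genes matched RefSeq symbols by gene number. Here, log2 differences between arrays were computed as deposited, and genes at least 1.5-fold apart were counted among those with a mean at or above the 40th percentile. limma 3.58.1 (R 4.3.3) fitted an additive model, 2-sided, with Benjamini-Hochberg adjustment over 19978 probe sets at 0.05; its prior had 2.83 degrees of freedom, and its standard errors say nothing of the spread between separate cultures. From each further list the text names the 3 genes with the largest mean cholate response and the 1 with the largest mean support difference. Members and lists were chosen with earlier results of these data known. The number of arrays limits the precision. Alternatives were median centring, quantile and cyclic loess normalization, the mean over a gene's probe sets, the floor, a 2-fold threshold and an intensity trend in the prior.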

Additional observations from a re-analysis of the deposited data

Results flagged for a closer look

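Some of the 10 genes had differences of opposite sign on the 2 supports or in the 2 treatments, each read from a single pair of arrays, and none of these contrasts was tested. The cholate response of ASNS was 0.10 log2 on Transwell and -0.19 on the plate, which differ by 0.30. That of ATF5 was 0.19 on Transwell and -0.07 on the plate, which differ by 0.26. That of ATF4 on the probe set used was -0.02 on Transwell and 0.13 on the plate, which differ by -0.15, and its Transwell sign turned after quantile normalization and cyclic loess. The support difference of CEBPB was -0.67 in cholate and 0.04 in vehicle, which differ by -0.71, and this was the single one of these at 1.5-fold.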

How the results depend on the processing

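The count of genes at least 1.5-fold higher in cholate on Transwell, 2 as reported, was 0 with arrays centred on their medians and 1 after quantile normalization, since DDIT3 and CHAC1 lay close to that size. With 2-fold in place of 1.5-fold it was 0 (0.0233% of all genes), against 2 of 10 on the plate (6 as reported; 0.512% of all genes), 3 lower on Transwell in cholate (7 as reported; 0.814%) and 0 with a smaller Transwell response (2 as reported; 0.248%). Genes passing limma for support, 0 as reported, numbered 4 with the floor at the 60th percentile (6.06% of probe sets) and 1 with the intensity trend (1.47%); the cause was not tested. Under cholate 0 of 10 passed in every setting run. The remaining counts stayed within 1.5 times. Signs turned under another scaling for values within 0.06 of 0, in ATF4, ATF5 and the response difference of DDIT3. ATF4 also turned with the mean over its probe sets, to 0.12 for cholate on Transwell and 0.09 for support in vehicle. The same 2 signs turned with its other probe set, an alternative added after the data were seen (0.26 and 0.30). No replicate block could be fitted because the labels number no replicates, and support was already a term of the limma model.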
